A study of Caenorhabditis elegans with 2 samples.

Results

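Protein kinase A (PKA) subunit genes were examined for binding of the transcription factor MEF-2 in first-stage (L1) larvae of Caenorhabditis elegans. The genome encodes the catalytic subunit in kin-1 (WBGene00002189) and the regulatory subunit in kin-2 (WBGene00002190), and these 2 of 19973 nuclear protein-coding genes were chosen by name with their peak counts in these data already known. Their counts and ranks are therefore given as descriptions, without tests. A site is the point source of a deposited peak, and every site from 5 kb before to 1 kb after each gene was taken. The material was whole L1 worms of mixed sex from strain OP301, genotype unc-119(tm4063) III; wgIs301. The wgIs301 transgene supplies an eGFP fusion of MEF-2. The samples form 1 group of 2 biological replicates, both carrying the transgene and the unc-119 allele; no other stage, strain or treatment is included. The labels give mef-2 as the antibody and describe the samples as ChIP-seq against eGFP-mef-2. They do not give the transgene's promoter or expression pattern. In whole worms, a weak site in many cells and a strong site in few cells cannot be told apart.

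PKA is the main cyclic AMP receptor of animal cells. With little cAMP the regulatory subunits hold the catalytic subunits inactive; cAMP binds the regulatory subunits and sets the catalytic subunits free to phosphorylate their targets. In C. elegans, kin-1 makes many isoforms with different first and last exons, and kin-2 makes a regulatory subunit of the type I kind. In mammals, PKA is among the kinases that act on MEF2 proteins and on the class IIa histone deacetylases that bind them.

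The deposited lists on ce11 held 30000 intervals for replicate 1, 16385 for replicate 2, 28182 for the pooled replicates and 832 after thresholding for agreement between replicates. Those 832 were the 832 strongest intervals of the pooled list. Rank 1 is the interval with the highest signal value given by the authors' caller. The scale of that value is not stated, and values were compared within a list only. Because the lists differ in length, the same rank is a different share of each. The relaxed lists hold background along with peaks: 84.1% of all nuclear protein-coding genes had a pooled site in a window of this kind. No read counts entered the comparison, and the depth is unknown.

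The catalytic subunit gene kin-1 carried 4 thresholded sites, and the regulatory subunit gene kin-2 carried 0. Of all nuclear protein-coding genes, 7.54% had at least 1 thresholded site in the same kind of window. Only mdl-1 and vps-4, with 5 each, had more than kin-1, and T28F4.1, asic-2, mef-2, pqn-41 and zfp-1 also had 4. Windows of neighbouring genes can overlap and count the same site, and sharing among these genes was not examined. The mef-2 gene encodes the protein that the transgene supplies as a fusion. The gene kin-1 is long: it spans 38.5 kb of the forward strand of chromosome I (14913766 to 14952226), has 15 annotated transcripts with 10 separate starts, and its window covers 44.5 kb. At the density of the nuclear genome a window of that size would hold 0.357 thresholded sites. By thresholded sites per kb, kin-1 stood at place 1199 of 19973, where 1505 genes had any thresholded site. Of the 23 genes at least as long as kin-1, itself included, 3 had a thresholded site and kin-1 was the one with 4.

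All 4 sites lay inside the gene, in introns 4 and 5 of the transcript with most exons (ZK909.2n.1), and 3 of them stood just before an internal transcript start. The strongest ran from 14922604 to 14922943, 203 bp before the start of transcripts ZK909.2g.1 and ZK909.2i.1. It had a signal value of 88.6 and rank 36 in the pooled list, 66.1 and rank 43 in replicate 1, and 25.8 and rank 42 in replicate 2. Its place near the top of the list was thus shared by both replicates.

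The site next in strength, from 14945598 to 14945716, stood 397 bp before the start of ZK909.2c.1, the innermost start of the gene. Its interval was narrower than the median of 340 bp. It ranked 56 in the pooled list with a signal value of 75.8, 64 in replicate 1 with 56.2 and 101 in replicate 2 with 19.8. A weaker pooled site (14945713 to 14946052, signal value 18.2, rank 1897) adjoined it, 198 bp before the same start, and overlapped the same replicate 1 interval.

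The site from 14939799 to 14940138 stood 40 bp before the start of ZK909.2m.1 and 369 bp before that of ZK909.2d.1. It was the weakest of the 4, with a signal value of 31.9 and rank 583 in the pooled list, where the threshold lay at 27.4. It ranked 842 in replicate 1 and 1307 in replicate 2, outside the 832 strongest of each.

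The remaining thresholded site, from 14924555 to 14924894, was the only one of the 4 outside the start windows: it lay 1748 bp after the start of ZK909.2g.1 and ZK909.2i.1. It also lay 272 bp before the annotated 5' end of F21F12.2, a non-coding RNA gene on the opposite strand inside this intron. The replicates placed it differently in strength. It ranked 103 in the pooled list (signal value 63.1) and 68 in replicate 1 (54.7), but 1611 in replicate 2 (6.31).

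**Figure D1:**
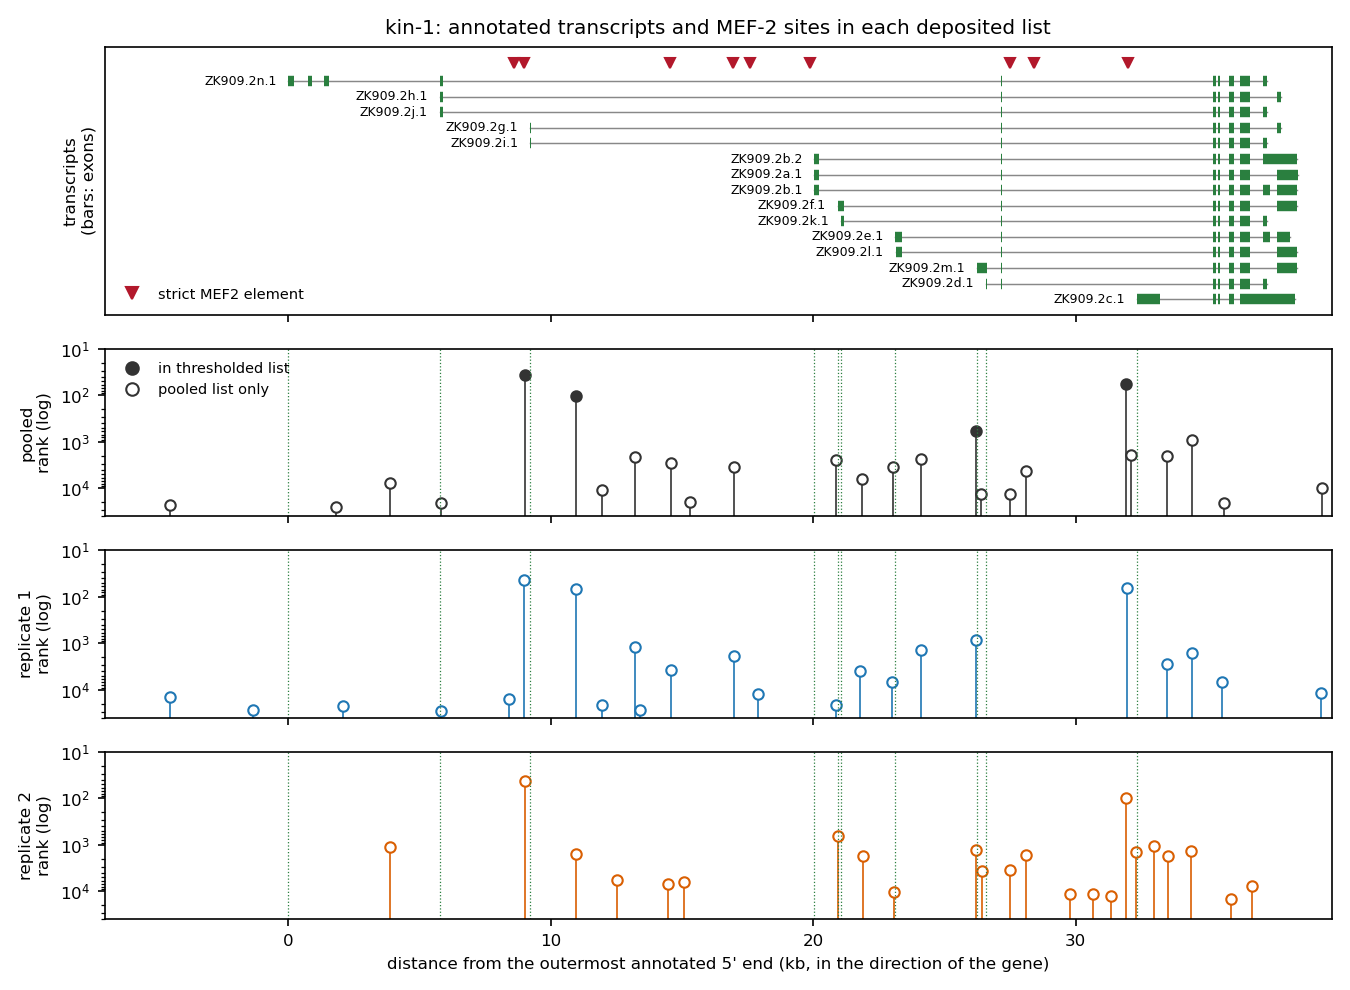
Sites at kin-1 by distance from the outermost annotated 5' end in kb, below the 15 annotated transcripts (bars are exons, triangles strict MEF2 elements). Each stem is a site with its rank on a log axis in the pooled list (filled where thresholded), replicate 1 and replicate 2, and dotted lines are annotated starts; the 4 filled sites stand at ranks 36, 103, 583 and 56 from left to right.

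By transcript start, 4 of the 10 kin-1 starts had a thresholded site from 1000 bp before to 200 bp after them, beside 2.94% of the 26605 starts of all nuclear protein-coding genes. The 4 starts share 3 sites, since ZK909.2m.1 and ZK909.2d.1 begin 329 bp apart. With pooled sites the count was 8 of 10, beside 39.1% of all starts. The outermost start (ZK909.2n.1, at 14913766) and the start of ZK909.2a.1, ZK909.2b.1 and ZK909.2b.2 (at 14933802) had no site in any list.

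The start of ZK909.2f.1, which lies 138 bp before that of ZK909.2k.1, had a site that the replicates ranked far apart. It stood 48 bp before the start at rank 2443 in the pooled list (signal value 16.2). Its rank was 650 in replicate 2 (9.87) but 21094 in replicate 1 (5.77). The site 86 bp before the start of ZK909.2e.1 and ZK909.2l.1 ranked 3443 in the pooled list, 6946 in replicate 1 and 10635 in replicate 2. At the start of ZK909.2h.1 and ZK909.2j.1 the pooled rank was 21233 of 28182 and the replicate 1 rank 29338 of 30000, with no site in replicate 2. The annotation gives no 5' untranslated bases for the transcripts g, h, i, j and k, so those starts are first codons and the place where transcription begins is not annotated.

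**Figure D2:**
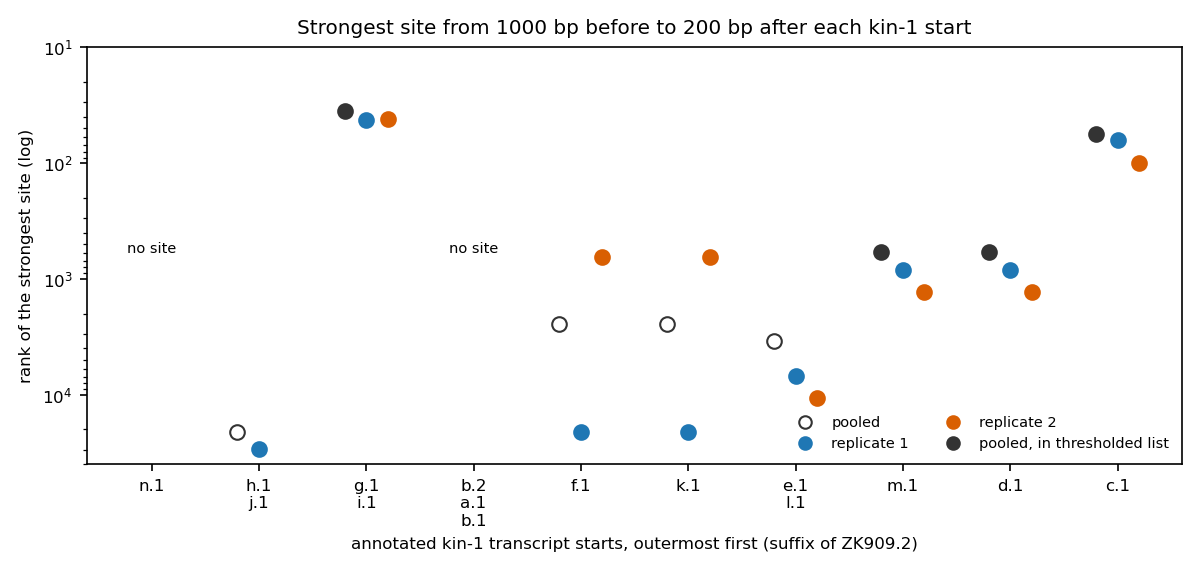
Rank (log axis) of the strongest site from 1000 bp before to 200 bp after each of the 10 kin-1 starts, in the pooled list (filled where thresholded) and both replicates. The starts of g and i and of c hold ranks between 36 and 101 in all 3 lists, those of m and d share 1 site, those of f and k share another, and the starts of n and of a and b have none.

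By intron, introns 4 and 5 held most of the sites. Intron 4 is 21.2 kb long (14919671 to 14940900) and has 7 starts inside it; it held 3 thresholded, 13 pooled, 14 replicate 1 and 10 replicate 2 sites. Intron 5 is 8.03 kb long (14940963 to 14948995) with 1 start inside; it held 1 thresholded, 6 pooled, 3 replicate 1 and 10 replicate 2 sites. Together they make up 65.8% of the window and carried 19 of 25 pooled sites, 0.649 per kb against 0.395 per kb in the rest of the window. The difference was larger in replicate 2, with 0.683 against 0.197 per kb, than in replicate 1, with 0.581 against 0.395 per kb. The replicates also differed between the introns: replicate 1 had 0.659 sites per kb in intron 4 and 0.373 in intron 5, and replicate 2 had 0.471 and 1.24.

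The strongest kin-1 site below the threshold lay in intron 5, from 14948007 to 14948346, 2096 bp after the start of ZK909.2c.1. It ranked 936 in the pooled list with a signal value of 25.7, beside the limit of 27.4, and 1625 and 1398 in replicates 1 and 2. Its neighbour from 14947061 to 14947400 ranked 2074, 2871 and 1748 in the same order of lists. Both replicates thus held these sites at moderate ranks.

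Other sites of intron 4 were seen in replicate 1 without replicate 2. The sites from 14926801 to 14927140 and from 14937695 to 14938034 ranked 2130 and 2403 in the pooled list and 1193 and 1416 in replicate 1, with no overlapping interval in replicate 2. The same held for the site from 14930576 to 14930915, at rank 3455 in the pooled list and 1888 in replicate 1; it lies 731 bp before F21F12.3, a small nucleolar RNA gene inside this intron. In intron 5 the opposite occurred: the pooled sites from 14941082 to 14941421 and from 14941713 to 14942052 had an interval in replicate 2 (ranks 3506 and 1670) and none in replicate 1.

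Outside introns 4 and 5 kin-1 had 6 of its 25 pooled sites, at ranks of 7647 and below, though 1 of them was stronger in replicate 2. Intron 3 (4.22 kb) held 2 pooled sites, the stronger at rank 7647 in the pooled list and 1120 in replicate 2, with none in replicate 1. In replicate 2 that site stood above 2 of the 4 thresholded sites, at ranks 1307 and 1611. In the 5 kb before the gene there was 1 pooled site, 4523 bp upstream at rank 23129, which lies within the neighbouring gene ptr-23, a patched-related gene. The site after the gene (rank 9960) lay 334 bp before the 5' end of the next coding gene, ZK909.3.

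Over the whole window, kin-1 had 25 pooled sites, 23 in replicate 1 and 23 in replicate 2. The nuclear genome's density would give 12.5, 13.3 and 7.27. No gene had more replicate 2 sites, although by sites per kb kin-1 stood at place 717 of 19973 in that list, at place 2016 in the pooled list and at 2975 in replicate 1. The median pooled rank of its sites was 3455, against 14105 over all nuclear pooled sites. By the authors' q value, 13 of the 25 were under 0.05, or 52%, against 13.7% of all nuclear pooled sites.

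Of the 25 pooled kin-1 sites, 13 overlapped an interval in both replicates by at least 1 bp, 8 in replicate 1 alone, 4 in replicate 2 alone and 0 in neither. The share in both was 52%, against 23.5% of all 28155 nuclear pooled sites. Of those 28155, 16156 were in replicate 1 alone, 2343 in replicate 2 alone and 3027 in neither. The 13 rest on 11 replicate 1 intervals, because neighbouring pooled sites at the starts of ZK909.2m.1 and ZK909.2c.1 share them. A further 4 sites were listed in replicate 1 alone and 6 in replicate 2 alone without a pooled partner. Of these 10, the strongest was in replicate 2 at rank 1049, in the first exon of ZK909.2c.1.

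Among the 832 strongest intervals of each replicate alone, kin-1 had 3 in replicate 1 (ranks 43, 64 and 68) and 3 in replicate 2 (42, 101 and 650). The sites before ZK909.2g.1 and ZK909.2c.1 were in both sets. At that limit 7.27% of genes had a site in replicate 1 and 7.92% in replicate 2. The gene kin-2 had none in either.

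**Figure D3:**
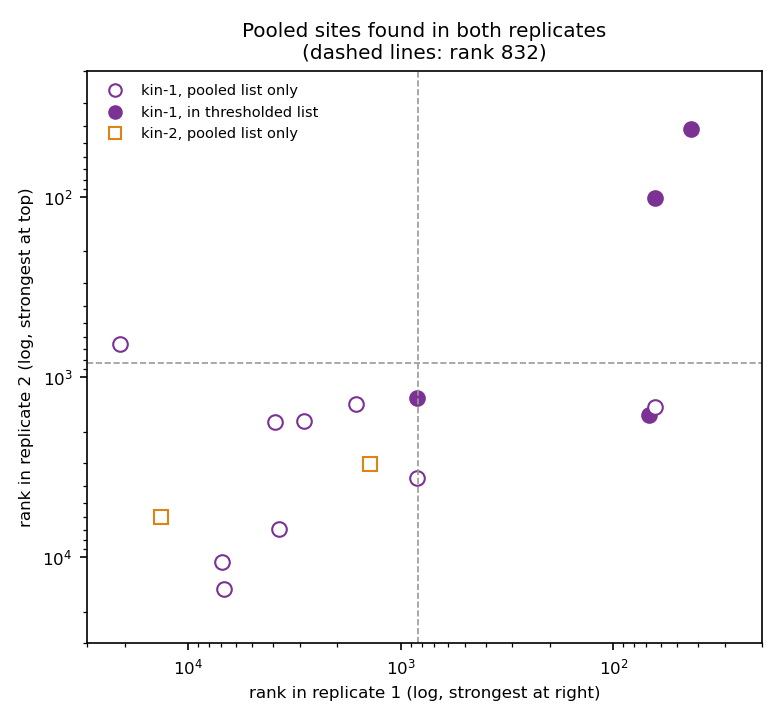
Rank in replicate 1 against rank in replicate 2 (log axes, strongest at the upper right) for the pooled sites of kin-1 (13) and kin-2 (2) that overlap an interval in both; filled symbols are in the thresholded list and dashed lines mark rank 832. Of the filled kin-1 sites, 2 lie beyond both lines, 1 beyond the replicate 1 line alone and 1 short of both.

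MEF2 elements are the A/T-rich sequences that MEF2 proteins bind. The general form was searched as well as a strict form, in which bases of A or T alone stand between a fixed CTA and a fixed TAG; each strict element is also a general one. Both strands were searched. Within 100 bp of the point source, 5 of the 25 pooled kin-1 sites held a strict element (20%), beside 0.849% of all nuclear pooled sites. Among the 4 thresholded sites it was 2, those before ZK909.2g.1 and ZK909.2c.1, beside 1.49% of all 806 nuclear thresholded sites. Within 50 bp it was 1 of the 4, beside 0.744%, since the element at ZK909.2c.1 lies 53 bp from the point source. These are the only kin-1 sites among the 832 strongest of both replicates. The other 3 were the intron 4 sites at pooled ranks 2900 and 3455 and the intron 5 site at pooled rank 13401.

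The general element gave the same 5 sites and the same 2 thresholded sites, beside 7.11% of all nuclear pooled and 4.96% of all nuclear thresholded sites. The thresholded sites from 14924555 and from 14939799 held neither form. No p-value is given, because the sites were chosen with results known and share 1 gene.

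The elements themselves were crowded in kin-1. Its window held 9 strict elements (0.202 per kb), where the nuclear genome's 0.0356 per kb gives 1.58. Of all 19973 genes 5 had more, and none of the other genes at least as long as kin-1 had as many. All 9 lay in introns 4 and 5, 6 in intron 4 and 3 in intron 5. Of the 9, 5 lay whole within 100 bp of a pooled point source, where 6.75% of the 3572 strict elements of the nuclear genome did. The other 4 were 302 to 1022 bp from the nearest pooled point source. General elements numbered 26, where the genome's density gives 17.1.

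The cAMP response element (CRE, TGACGTCA), the binding sequence of CREB-type factors that PKA phosphorylates, was searched for comparison. It was present at 1 of the 25 pooled kin-1 sites, beside 1.35% of all nuclear pooled sites. That site lay in intron 4 at pooled rank 19389 (14928911 to 14929250). The 4 thresholded sites had none, beside 3.6% of all nuclear thresholded sites. The whole kin-1 window held 3 CREs, where the genome's density gives 2.67. The CRE from 14946079 to 14946086 spanned the annotated start of ZK909.2c.1. It lay 200 bp from the nearest pooled point source and 35 bp from the nearest in replicate 2.

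The base composition of the kin-1 thresholded sites lay within the usual range of the list. G and C made up 39.3% of the 201 bp around the strongest site and 41.8%, 44.3% and 48.3% around the other 3. Over all nuclear thresholded sites the median was 45.3%, with 36.3% and 54.2% at the 10th and 90th percentiles.

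The regulatory subunit gene kin-2 spans 7.21 kb of the reverse strand of chromosome X (5970647 to 5977854). It has 3 transcripts with 2 separate starts, 3571 bp apart, and a window of 13.2 kb, where the genome's density would give 0.106 thresholded sites. It had 8 pooled sites, 7 in replicate 1 and 5 in replicate 2, where the genome's density gives 3.71, 3.95 and 2.16. The gene was thus not short of intervals, but the pooled ones were weak: their ranks ran from 5460 to 26511 with a median of 20906, and none of the 8 had an authors' q value under 0.05 in the pooled list. The q values differed widely between lists: the strongest kin-2 interval of replicate 1 had 0.00316, and the 5 of replicate 2 had 0.001 to 0.0016, in a list whose every interval had a −log10 q of at least 1.93.

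Neither kin-2 start had a pooled site from 1000 bp before to 200 bp after it. At the outer start, shared by R07E4.6a.1 and R07E4.6c.1, replicate 2 alone had a site, 572 bp upstream at rank 10333. At the inner start, of R07E4.6b.1, replicate 1 alone had a site, 941 bp upstream at rank 18873. The strongest intervals lay in intron 2 of R07E4.6a.1 (4.39 kb, 5973205 to 5977591), which holds the inner start and had 3 pooled, 4 replicate 1 and 2 replicate 2 sites.

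The strongest pooled site of kin-2 ran from 5975317 to 5975656 in that intron, 1204 bp before the inner start. It had a signal value of 11.5 and an authors' q value of 0.136 in the pooled list, 0.548 in replicate 1 and 0.00109 in replicate 2. It ranked 5460 in the pooled list, 13424 in replicate 1 and 5978 in replicate 2. As shares of the list lengths these ranks are 19.4%, 44.7% and 36.5%. Both replicate point sources lay within 26 bp of the pooled one. This was the kin-2 site on which the 3 lists agreed in place.

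A second group of intervals lay about 1 kb after the outer start and differed in place between the replicates. The pooled site from 5976654 to 5976993 ranked 9470 (signal value 9.31). The replicate 1 interval it overlapped was the strongest of the gene in that list, rank 1393 with a signal value of 16.4, with its point source 120 bp to one side. The replicate 2 interval, also the strongest of the gene in its list, ranked 3023 (4.71) with its point source 209 bp to the other side. That replicate 2 interval also overlapped a weaker pooled site, from 5976363 to 5976702 at rank 19741, whose point source was nearer, at 82 bp. A non-coding RNA gene on the opposite strand, R07E4.7 (5976673 to 5976811), lies under these intervals.

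Of the 8 pooled kin-2 sites, 2 overlapped an interval in both replicates, 2 in replicate 1 alone, 1 in replicate 2 alone and 3 in neither. The share in both was 25%, near the 23.5% of all 28155 nuclear pooled sites. Of those 28155, 16156 were in replicate 1 alone, 2343 in replicate 2 alone and 3027 in neither. The 3 kin-2 sites in neither were the 2 sites in exons and the site after the gene, at ranks 24401, 22072 and 25578. The site in replicate 2 alone, at rank 19741, shared its replicate 2 interval with the site at rank 9470, which was in both. Before the gene, the pooled sites 3012 and 2060 bp upstream of the outer start ranked 11415 and 26511 and had partners in replicate 1 alone.

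**Figure D4:**
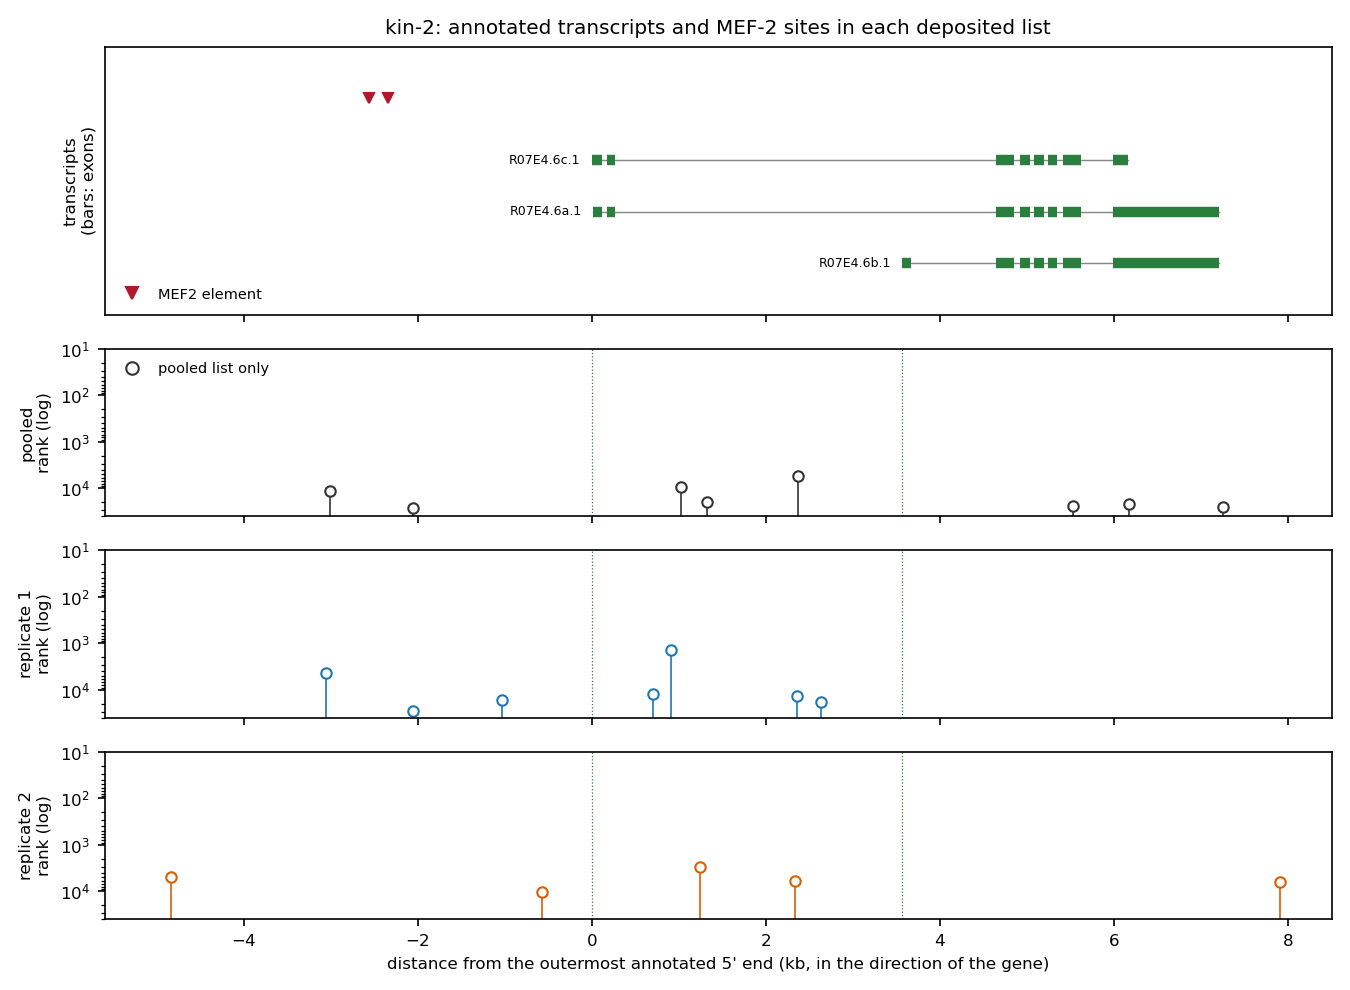
Sites at kin-2 by distance from the outermost annotated 5' end in kb, below its 3 transcripts, drawn as for kin-1 with triangles for general MEF2 elements. No site is filled, the best pooled rank is 5460, and both elements lie upstream of the gene away from any pooled point source.

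No pooled kin-2 site held a MEF2 element of either form or a CRE within 100 bp. Over all nuclear pooled sites the shares were 7.11% for the general form, 0.849% for the strict form and 1.35% for the CRE. The window held 0 strict elements, where the genome's density gives 0.471, and 2 general ones, where it gives 5.09. It held 1 CRE, where the density gives 0.794, 385 bp from the nearest pooled point source. The general elements lay 2336 and 2556 bp upstream of the outer start, 276 and 456 bp from the nearest pooled point source. The 201 bp around 2 of the intron 2 sites are printed here, so that the absence of the element can be read against a site that has one. That site is the thresholded one at acy-1, an adenylyl cyclase gene that acts before PKA, on chromosome III. Each is written in the direction of its gene from the RefSeq WBcel235 assembly, and capitals mark a general MEF2 element.

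kin-2, chrX:5975387-5975587, reverse strand: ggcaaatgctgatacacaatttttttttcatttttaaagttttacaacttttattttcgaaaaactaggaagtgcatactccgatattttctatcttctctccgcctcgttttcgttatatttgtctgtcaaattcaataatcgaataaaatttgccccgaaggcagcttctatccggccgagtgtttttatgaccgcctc
kin-2, chrX:5976724-5976924, reverse strand: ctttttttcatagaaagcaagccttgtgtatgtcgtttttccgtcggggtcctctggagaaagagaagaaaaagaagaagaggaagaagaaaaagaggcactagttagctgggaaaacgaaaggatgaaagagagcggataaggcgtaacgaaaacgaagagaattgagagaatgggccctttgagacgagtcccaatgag
acy-1, chrIII:4723928-4724128, forward strand: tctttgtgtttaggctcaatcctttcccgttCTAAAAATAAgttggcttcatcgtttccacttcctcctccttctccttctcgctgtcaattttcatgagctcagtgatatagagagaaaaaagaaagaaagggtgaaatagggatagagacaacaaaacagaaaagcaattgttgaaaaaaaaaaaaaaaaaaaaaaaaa

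The kin-2 sequences hold no capitals. The upper one is the strongest pooled site (35.8% G and C) and the middle one the pooled site that overlapped the strongest kin-2 interval of both replicates (43.8%), where long runs of A and G stand on the strand shown. The element at acy-1 is of the general, not the strict, form, and 4.96% of all nuclear thresholded sites held a general element.

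Genes that act with PKA or are related to it were followed in a list of 38. It holds the G protein and cyclases that raise cAMP, receptors that can act through that G protein, and phosphodiesterases. The phosphodiesterases were not sorted by whether they act on cAMP. Also listed are other cAMP effectors, CREB-type factors with their coactivators, and other kinases of the AGC family to which KIN-1 belongs. All 38 names matched the annotation. A thresholded site was found at 10 of 38 (26.3%), beside 7.54% of all genes. The genes of the list are longer, with a median of 7.63 kb against 2.03 kb over all nuclear protein-coding genes, and their median number of pooled sites was 7 against 2. The part of length in that difference was not tested. None of the 38 had more pooled sites than kin-1. That count is not adjusted for length: kin-1, at 38.5 kb, is longer than all of them, the longest being crh-1 at 36.2 kb.

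Upstream of PKA, gsa-1, which encodes the stimulatory G alpha subunit, had 3 thresholded sites. The strongest (chromosome I, 1069847 to 1070186) stood 366 bp before a gsa-1 start, with a signal value of 56.8 and ranks of 131 in the pooled list, 119 in replicate 1 and 346 in replicate 2. The neighbouring gene vps-4 starts 3118 bp from it, and its window overlaps that of gsa-1. Of the 4 adenylyl cyclase genes, acy-1 had a thresholded site, in an intron 1933 bp after its start (chromosome III, 4723858 to 4724197, signal value 31.0). It ranked 616 in the pooled list, 630 in replicate 1 and 1445 in replicate 2. The best pooled ranks of acy-2, acy-3 and acy-4 were 12193, 3481 and 8403. None of the 3 receptor genes had a thresholded site; pdfr-1, the receptor of the PDF neuropeptides, came nearest at rank 846 with a signal value of 27.1.

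Of 6 phosphodiesterase genes, pde-2 and pde-4 had a thresholded site. That of pde-4, whose product degrades cAMP, stood 205 bp before a start (chromosome II, 7642199 to 7642538, signal value 28.2, pooled rank 768) and ranked 2729 in replicate 1 and 306 in replicate 2. That of pde-2 lay 3285 bp upstream (chromosome III, 8985012 to 8985351, 33.1, pooled rank 538) and ranked 393 and 883. The best pooled site of pde-6 ranked 1022. Of the anchoring and effector genes, none of 3 had a thresholded site, and aka-1, which encodes an A-kinase anchoring protein, came nearest at rank 1178.

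Downstream, 3 of the 4 genes for CREB-type factors and coactivators had a thresholded site. It ranked 121 at cbp-1, the CBP/p300 acetyltransferase gene (58.6, 915 bp before the start), 151 at crtc-1, the CREB-regulated coactivator (53.4, 1561 bp upstream), and 821 at crh-2 (27.5, in an intron). The sites of cbp-1 and crtc-1 ranked 148 and 279 in replicate 1 and 99 and 190 in replicate 2. The replicates ranked that of crh-2 further apart, at 1716 in replicate 1 and 242 in replicate 2. The CREB gene crh-1, at 36.2 kb nearly as long as kin-1, had 24 pooled sites but no thresholded one; its best ranked 928 with a signal value of 25.7. Of 16 other AGC kinase genes, rskn-1 (rank 165), pkg-2 (254) and akt-2 (563) had a thresholded site, and grk-1 came nearest among the rest at rank 1189. In replicates 1 and 2 the site of rskn-1 ranked 208 and 248, that of pkg-2 245 and 1332, and that of akt-2 551 and 1266. The thresholded sites of acy-1 and crtc-1 held a general MEF2 element, and the strongest ones of the other 8 genes did not. Over all nuclear thresholded sites the share was 4.96%.

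**Figure D5:**
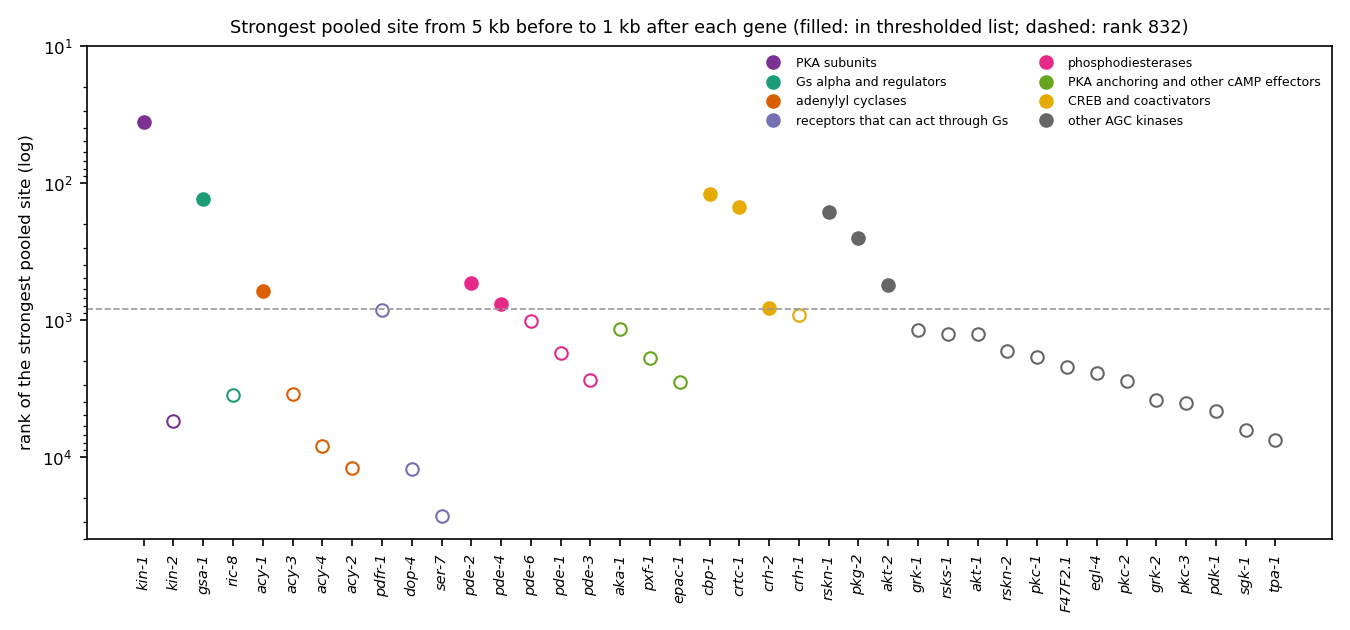
Rank of the strongest pooled site (log axis) from 5 kb before to 1 kb after kin-1, kin-2 and the 37 genes of the list with a pooled site, by role; pde-5 had none. Filled symbols have a thresholded site, and the dashed line is rank 832; kin-1 stands highest at 36, and kin-2 at 5460.

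The genes with the most similar profile were found among genes of 0.5 to 2 times the member's length, by the Euclidean distance over 6 values: the sites per kb and the best rank in the pooled and both replicate lists, each as a percentile over all genes. For kin-1, among 208 genes, these were T28B11.1 at 10.1 percentile points, fkh-7, a forkhead factor gene, at 11.7 and teg-4 at 14.7; they had 1, 2 and 1 thresholded sites. For kin-2, among 4606 genes, they were W02B8.1 at 12.9, cdk-12, a kinase gene, at 14.5 and F32B5.7 at 15.1, each with 0 thresholded sites. The best pooled rank enters the profile, and the thresholded list is the top of the pooled list. The thresholded counts are therefore not a likeness separate from the matching. By best rank, kin-1 stood at the 99.8, 99.9 and 99.5 percentiles in the pooled list, replicate 1 and replicate 2, and kin-2 at 65.2, 88.5 and 77.3. By sites per kb they were closer, at 89.9, 85.1 and 96.4 for kin-1 and 92.5, 86.2 and 89.8 for kin-2. By these percentiles the genes differed more in best rank than in sites per kb. Best rank is not adjusted for the length of the window, which is 44.5 kb for kin-1 and 13.2 kb for kin-2. The median pooled rank, 3455 at kin-1 and 20906 at kin-2, differed in the same direction.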

How the data were processed

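MEF-2 tagged with eGFP was mapped by ChIP-seq in 2 replicates. Per the deposited file records, a relaxed list came from the alignment of each replicate, or of both pooled, with 1 further file of unstated kind, and the thresholded list from all 3; the labels name a possible control. The aligner is not given in the sources used here, nor are the caller, its version and the thresholding limit. The authors' signal value ranked peaks within a list only, ties taking the better rank. The deposited −log10 q-value (narrowPeak column 9, read by the format's definition since no header names it) was turned back into q and used as a description. The offset of the point source, also deposited, gave each site. Only ce11 lists were used; ce10 lists were not analysed here.

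Gene models were those of Ensembl release 115, and bases were read from RefSeq, both on WBcel235 (ce11). Starts of a gene within 50 bp were merged. A pooled site was paired with the replicate interval that overlapped it by at least 1 bp, the nearest point source where several did. Introns were numbered in the transcript with most exons. Elements were counted where they lay whole within 100 bp of a point source. Site placement and the element search were checked on made-up positions and sequence. Python 3.11.15, numpy 2.4.6 and scipy 1.17.1 were used.

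Members and lists were chosen with earlier results of these data known, so no test was run. Genes named are kin-1, kin-2, their neighbours, list genes with a thresholded site, the 5 next strongest of the list and the 3 nearest profiles; acy-2, acy-3, acy-4 and pde-5, and genes with at least 4 thresholded sites, were named after their values were seen. Alternatives were other windows, interval overlap, a stricter threshold, single replicates, other pairing rules and element widths, and, added after the data were seen, other start windows.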

Additional observations from a re-analysis of the deposited data

How the results depend on the processing

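The 4 thresholded kin-1 sites and the 0 at kin-2 were the same with a window from 2 kb before to 500 bp after the gene, with the gene body alone and with any overlap in place of the point source. With the 416 strongest thresholded peaks kin-1 had 3, and with the 832 strongest of either replicate alone it had 3; kin-2 had 0 in each. The 4 kin-1 starts with a thresholded site stayed at 4 with start windows of 500 bp before to 100 bp after and of 2 kb before to 200 bp after, both added after the data were seen. With the gene body alone, kin-2 had 5 pooled, 4 replicate 1 and 2 replicate 2 sites, and with the 2 kb window 3 replicate 2 sites. The share of all genes with a thresholded site was 0.931% for gene bodies alone and 3.8% with the 416 strongest peaks, and lay between 7.27% and 7.92% with single replicates. Pooled kin-2 sites in both replicates numbered 1 with point sources within 100 bp and 1 with overlap of at least 50% of the shorter interval; those of kin-1 numbered 10 and 11. Of the 38 pathway genes, 5 had a thresholded site with start windows alone and 5 with the 416 strongest peaks, and 9 to 11 with single replicates. For start windows alone no share of all genes is given here, so that count has no background to be read against. The pooled kin-1 sites with a MEF2 element were 4 within 50 bp and 5 within 150 bp, and the thresholded ones 1 and 2. No paired analysis was possible because there is 1 group. With no read counts, weak sites cannot be told from background here.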
